A study of Mus musculus with 16 samples.

Results

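The Vk21 region units are 6 features of an Agilent mouse array that read the variable part of immunoglobulin kappa light chains and lie together on chromosome 6. They were taken by their names from a fixed list of 6, out of 41174 non-control features on the array, and all 6 were among the 29637 features past the filter on dim signals. The list was drawn up from the sample-over-reference ratios of these same samples, so the values of the 6 units are a description and carry no test. The label holds for 4 units, which the files describe as kappa chains of the V-III type, while the files call BC080787 only a kappa chain and ENSMUST00000089809 only a light chain variable region.

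The cells were follicular B cells of C.B17 mice, which are mature, recirculate and settle in lymphoid follicles, and they were compared in 5 groups. The 8 samples were each measured on 2 arrays with the dyes exchanged, against a reference RNA pooled from 6 cell lines, among them the plasmacytoma J558 and the T lymphoma EL4 besides R1, RS2, DN3 and P388d. Auto.Neg cells (2 samples) came from ATAμκTg mice, which carry the VH3609μ/Vk21-5κ receptor against the thymocyte antigen Thy-1, in a Thy-1 knockout that lacks the antigen. Non-edited and Edited cells (1 sample each) came from Thy-1 knockout mice that were +/- for VH3609t and for Vk21-5Tg. Auto.Pos cells (2 samples) came from AGcAμκTg mice, whose VH3609μ/Vk19-17κ receptor recognises intestinal goblet cells and whose labels give no Thy-1 knockout. A second label field writes that light chain as Vkappa17- 17kappa. WT cells (2 samples) were wild type. The Vk21-5 light chain is thus given for 4 samples and not for the 4 others. No label states the promoters of the transgenes, the age of the mice or whether samples came from separate animals, so the spread between the samples of a group may be technical.

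A kappa light chain is made by joining a V segment to a J segment in front of the constant region, and a B cell usually keeps a single productive light chain, a rule known as allelic and isotypic exclusion. A light chain that arrives as a prejoined transgene tends to hold back the rearrangement of the cell's own light chain genes. Receptor editing is the replacement of a light chain by a further rearrangement, and it is best known in cells whose first receptor binds self. The Vk21 segments, named Igkv3 in the present nomenclature, lie closest to the J segments among the kappa V families. RefSeq (GRCm38.p6) holds 13 Igkv3 units, of which 9 are V segments and 4 are pseudogenes, and Igkv3-5 carries Igk-V21-5 as an older name.

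The 6 units span 185 kb of chromosome 6 in the coordinates of the files (mm7), each as a stretch of 60 bases on the plus strand. Igk-V21-12 (feature A_52_P39164) lies at chr6:70536801-70536860 and LOC673099 (feature A_52_P121942) at chr6:70571620-70571679. ENSMUST00000089814 (feature A_52_P374653) follows at chr6:70591160-70591219 and LOC674029 (feature A_52_P157837) at chr6:70606692-70606751. BC080787 (feature A_52_P614207) lies at chr6:70625849-70625908 and ENSMUST00000089809 (feature A_51_P395899) at chr6:70721928-70721987. By gene ID only 1 unit, Igk-V21-12, matched a RefSeq gene, Igkv3-12. No unit matched Igkv3-5, and members of a V family resemble each other closely, so a signal cannot be given to a single V segment and the transgene cannot be told apart from its relatives here. Exon, intron and UTR annotation of the mm7 positions was not used here, and no probe sequence is printed, since none was in the sources used here.

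The samples differed in ways the groups do not explain. Over all features the log2 ratios of Auto.Neg sample 2 correlated at r = 0.979 with Auto.Pos sample 1 on the same slide, and at r = 0.882 with Auto.Neg sample 1. On an array 61.9 to 81.9% of features carried the scanner software's mark for a sample signal well above background. On the second array of WT sample 2 the median reference signal was 1036, against 91.5 to 286.8 on the other arrays, and the differences of the 6 units from WT were also computed without that array. All 10 B cell marker genes were well above background on all 16 arrays, with a summed sample signal of 946712 to 1190110. The 10 T cell markers summed to 23521 to 34936, the 7 macrophage markers tested to 21372 to 118968 and the 5 neutrophil markers tested to 7305 to 48118. The 9 plasma cell markers, several of which B cells also express, summed to 51397 to 54470 in the 4 samples with Vk21-5, to 62349 and 47417 in WT and to 61949 and 61088 in Auto.Pos. The part of other cell types in the results was not tested, and fewer cells of a type cannot be told apart from less RNA per cell in such bulk samples. Of the 16 columns of the authors' deposited table of log2 ratios, 6 matched best the array of their own label and 10 another array. The values below follow the scanner files, and the columns of Auto.Pos sample 2, Non-edited and Edited matched in both sources.

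The 4 units from ENSMUST00000089814 to ENSMUST00000089809 read highest in Auto.Neg and Non-edited, lower in Edited, lower again in WT and lowest in Auto.Pos. Each value is a log2 ratio of the sample channel to the reference channel, averaged over a dye-exchanged pair, and each SD is over samples. ENSMUST00000089814, described as a V-III chain like MOPC 63, read 6.69 and 7.24 in the Auto.Neg pair, 6.95 in Non-edited, 5.995 in Edited, 4.14 and 3.67 in WT, and -0.50 and -0.24 in Auto.Pos. No 2 groups of replicated samples overlapped. The Auto.Neg mean was 6.97 ± 0.39 (SD, n = 2) and the WT mean 3.90 ± 0.34 (SD, n = 2).

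BC080787, a kappa chain complex cDNA, read 6.75 and 6.96 in the Auto.Neg pair, 7.39 in Non-edited, 5.84 in Edited, 4.55 and 4.05 in WT, and 1.05 and 1.20 in Auto.Pos. Non-edited was its highest sample. The Auto.Neg mean was 6.85 ± 0.15 (SD, n = 2) and the WT mean 4.30 ± 0.35 (SD, n = 2). The order of the groups was that of ENSMUST00000089814, and Auto.Pos stayed above the reference.

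LOC674029, a further V-III unit like MOPC 63, read 5.12 and 5.92 in the Auto.Neg pair, 5.82 in Non-edited, 3.80 in Edited, and 2.77 and 2.01 in WT. In Auto.Pos it was not well above background on any of the 4 arrays, and its measured ratios were 0.02 and 0.30. From the mean sample channel signal, normalized between dyes and arrays, the WT level was 4.65-fold above that of Auto.Pos. For Auto.Pos this used the lowest signal of a feature well above background or the dim signal itself, whichever was higher. The measured Auto.Pos minus WT difference was -2.23, but -1.71 between the samples of scan day 3 and -1.61 with the sample in Cy3. For Auto.Neg over Auto.Pos the sample channel gave 65.2-fold in this way and the measured ratios 40.9-fold. None of these values is given as a lower bound. The reference channel of LOC674029 was also not well above background on either array of WT sample 1, Edited and both Auto.Pos samples. In WT sample 2 it was well above background on only 1 of the 2 arrays. Those ratios rest on a dim denominator, and in Auto.Pos both channels were dim.

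ENSMUST00000089809, described from a monoclonal antibody light chain, read 4.79 and 4.81 in the Auto.Neg pair, 5.22 in Non-edited, 3.48 in Edited, 2.49 and 2.63 in WT, and -0.37 and 0.13 in Auto.Pos. The Auto.Neg mean was 4.80 ± 0.015 (SD, n = 2) and the WT mean 2.56 ± 0.098 (SD, n = 2). Over the 8 samples these 4 units correlated with each other at r = 0.972 to 0.995, as a description of samples that share a reference and 2 of which share a slide.

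**Figure D1:**
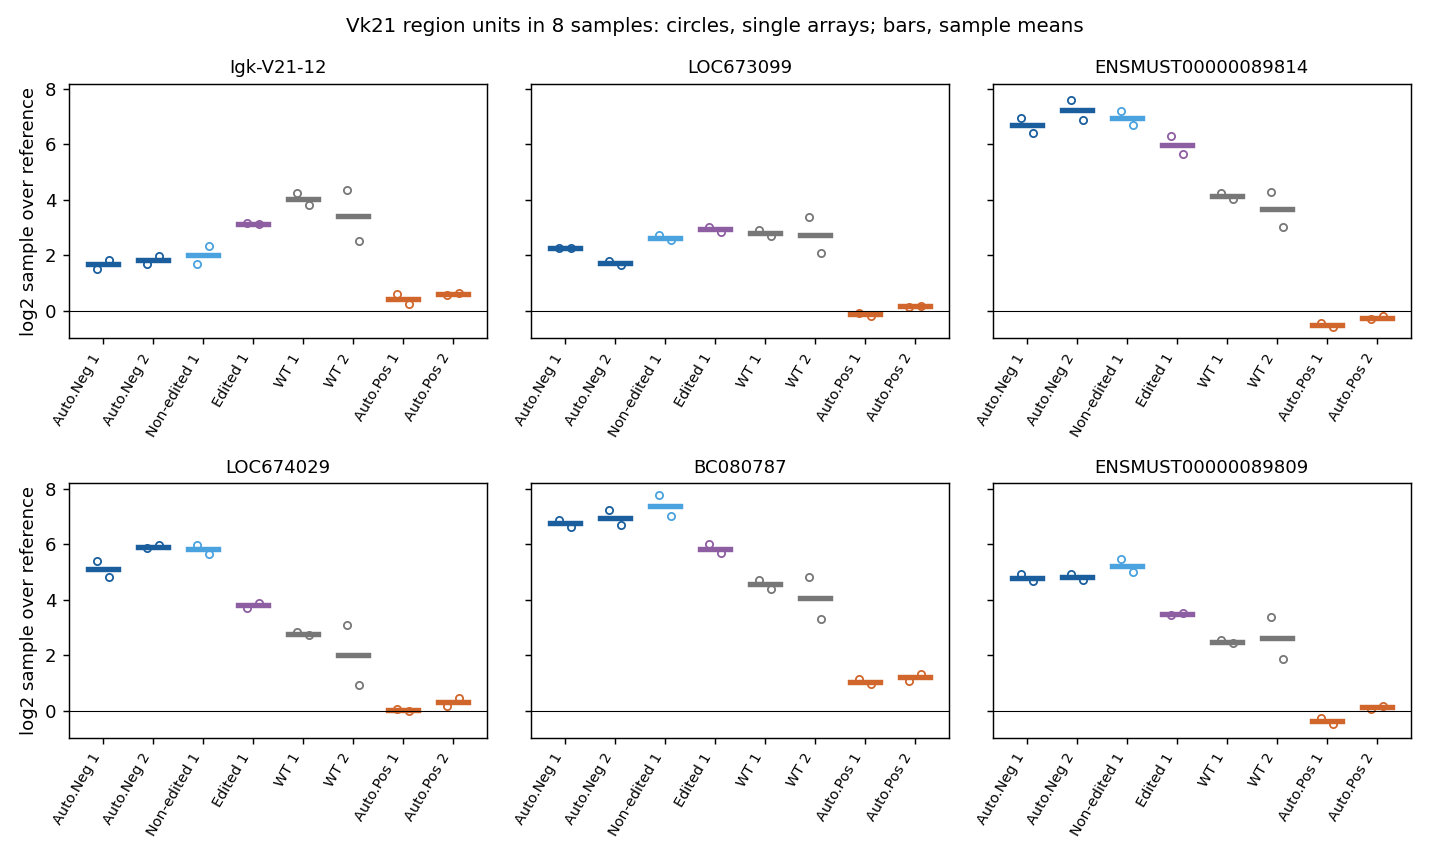
Log2 ratio of sample over reference (y axis) of each of the 6 units in the 8 samples (x axis). Circles are single arrays, bars the mean of the 2 arrays of a sample, and colours the groups. The lower 4 units in file order read 4.79 to 7.39 in Auto.Neg and Non-edited and -0.50 to 1.20 in Auto.Pos, whereas Igk-V21-12 and LOC673099 read higher in WT than in Auto.Neg.

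The other pair of units, at the low-coordinate end of the span, had another order. Igk-V21-12, the unit that RefSeq calls Igkv3-12, read 1.69 and 1.83 in the Auto.Neg pair, 2.02 in Non-edited, 3.15 in Edited, 4.03 and 3.44 in WT, and 0.44 and 0.61 in Auto.Pos. Here WT was highest, Edited came next, and the 3 samples labelled Vk21-5 and not edited lay below both. Its Auto.Neg mean was 1.76 ± 0.10 (SD, n = 2) and its WT mean 3.73 ± 0.42 (SD, n = 2).

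LOC673099, a V-III unit like MOPC 63, read 2.27 and 1.73 in the Auto.Neg pair, 2.65 in Non-edited, 2.94 in Edited, 2.81 and 2.75 in WT, and -0.12 and 0.16 in Auto.Pos. Non-edited, Edited and WT lay within 0.30 of each other, close to the SD of 0.25 pooled over the replicated groups, so their order cannot be read. Igk-V21-12 correlated with LOC673099 at r = 0.878 over the 8 samples and with the other 4 units at r = 0.284 to 0.471.

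Auto.Neg and WT differ in the transgenic receptor and in the Thy-1 knockout, and they share no slide or scan day. These differences cannot be told apart here. Auto.Neg sample 1, Non-edited and Edited were scanned on day 4, on which no WT or Auto.Pos sample was scanned. For 4 of the 6 units both Auto.Neg samples and Non-edited lay above both WT samples, an arrangement found in 11% of all features tested, and for the remaining 2, Igk-V21-12 and LOC673099, they lay below, as in 6.97% of all features. For LOC673099, Non-edited at 2.65 and WT sample 2 at 2.75 lay closer than the pooled SD of 0.25, so this order cannot be read. With Edited included, the 4 samples with Vk21-5 lay above the 4 others for 4 units (background 1.29%) and below them for 0 units (background 0.773%). The Auto.Neg minus WT difference was 3.13 for LOC674029 (SE 0.40), 3.06 for ENSMUST00000089814 (SE 0.30), 2.56 for BC080787 (SE 0.25) and 2.25 for ENSMUST00000089809 (SE 0.24). These are 4.75-fold to 8.73-fold differences on the scale of the ratios. Igk-V21-12 differed by -1.98 (SE 0.27) and LOC673099 by -0.78 (SE 0.27). The median over the 6 was 2.402, and that over all features tested 0.04. limma's moderated test with Benjamini-Hochberg adjustment called 0% of all features higher and 0% lower in this comparison, 0 of the 6 units among them, while 1289 features had an unadjusted p under 0.05. Without the second array of WT sample 2 the median over the 6 was 2.02, and 4 units again lay above and 2 below WT. With the scanner software's own log ratio, with scale normalization or with the sample in Cy3, 4 lay above and 1 below. All 7 macrophage markers tested had negative differences from WT in Auto.Neg (median -0.57) and in Auto.Pos (median -0.48), with 0 called by limma, 1 and 0 at an unadjusted p under 0.05, and their part in the differences of the kappa units was not tested.

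In Auto.Pos, whose labelled light chain is Vk19-17, all 6 units read below every other sample, an arrangement of 1.88% of all features. Among 40 other kappa units past the filter it was found in 7. It was found in 10 without Auto.Pos sample 1 and in 22 without Auto.Pos sample 2, but leaving out a sample can only loosen it. No share over all features was taken for those counts, so they are not read further. The Auto.Pos minus Auto.Neg difference was -7.34 for ENSMUST00000089814 (SE 0.30), the largest of all 29637 features, and -5.73 for BC080787 (SE 0.25). The measured value of LOC674029, which rests on the dim Auto.Pos signal, was -5.36, and the difference was -4.93 for ENSMUST00000089809 (SE 0.24). LOC673099 differed by -1.98 (SE 0.27) and Igk-V21-12 by -1.23 (SE 0.27). The median was -5.14, against 0.01 over all features tested. On slide 2, which held Auto.Pos sample 1 and Auto.Neg sample 2, the differences ran from -7.74 to -1.39 in the same direction for all 6. limma with Benjamini-Hochberg adjustment called 0.0101% of features lower and 0% higher, which was 3 features in all, each one of the 6 units: ENSMUST00000089814, BC080787 and ENSMUST00000089809. Because the units were chosen from this contrast, that count describes the choice and nothing is read from it, and it was 0 whenever any 1 of the 6 samples of Auto.Neg, Auto.Pos and WT was left out.

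Against WT, which shares its samples with the comparison above, Auto.Pos differed by -4.28 for ENSMUST00000089814 (SE 0.30), -3.17 for BC080787 (SE 0.25), -2.76 for LOC673099 (SE 0.27) and -2.68 for ENSMUST00000089809 (SE 0.24). LOC674029, dim in Auto.Pos, had a measured value of -2.23 and is not ranked among them. Igk-V21-12 differed by -3.21 (SE 0.27), beside its -1.98 in Auto.Neg against WT. The median was -2.97, against 0.05 over all features. limma with Benjamini-Hochberg adjustment called 0% of all features higher and 0% lower, 0 of the 6 units included, with 1587 features at an unadjusted p under 0.05. Auto.Pos sample 2 and WT sample 2 were scanned on the same day, and their differences ran from -3.91 to -2.50 for the 5 units other than LOC674029. Without the second array of WT sample 2 the median was -3.32 and 26 features were called.

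**Figure D2:**
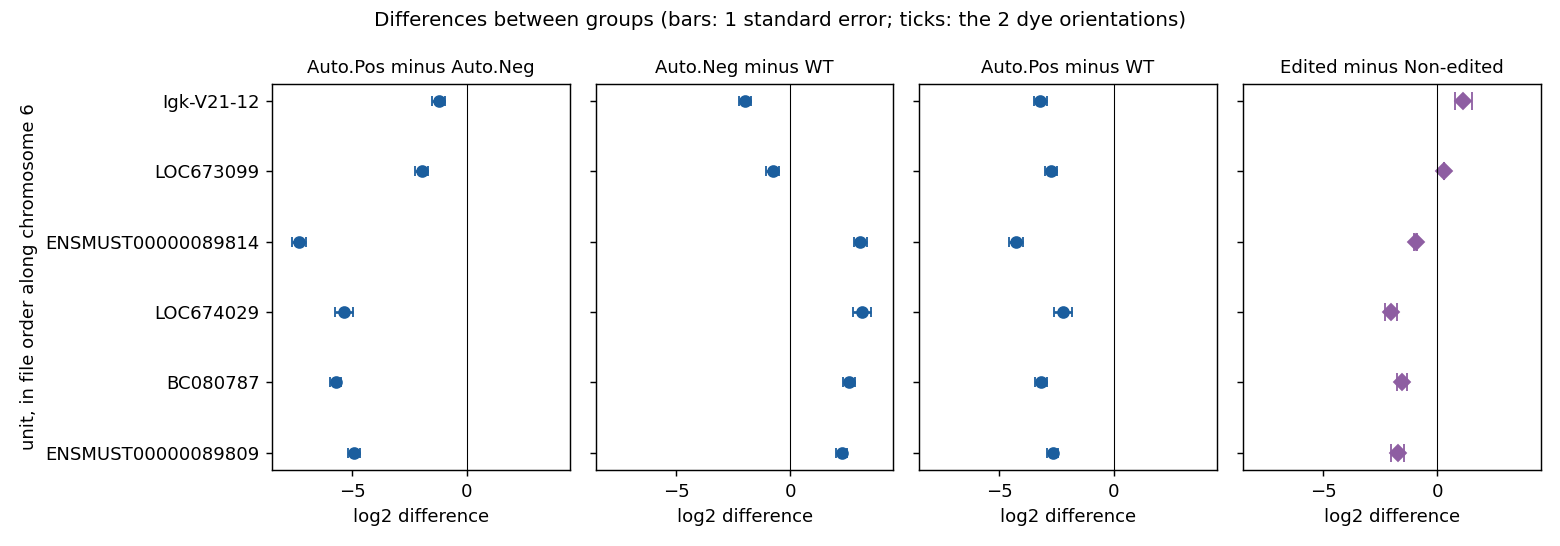
Differences in log2 ratio (x axis) of the 6 units (y axis, in file order) in 4 comparisons. Blue points carry 1 standard error from limma, and purple points, with no replicates, carry ticks for the 2 dye orientations. Auto.Pos lies below Auto.Neg and WT for all 6. The plotted Auto.Neg minus WT and Edited minus Non-edited differences have opposite signs in each unit. For LOC673099 the Edited minus Non-edited difference is close to the pooled SD, and for LOC674029 its sign turned with the scanner software's own log ratio. The Auto.Pos points of LOC674029 rest on a signal not well above background.

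Edited and Non-edited cells carry the same 2 transgenes and differ in their label for editing, with 1 sample each and therefore no test. Relative to the Auto.Neg mean, Non-edited differed by -0.02 for ENSMUST00000089814 to 0.64 for LOC673099, whose pooled SDs were 0.32 and 0.25. Edited was lower than Non-edited by 2-fold or more in both dye orientations for 3 of the 6 units, against 0.138% of all features, and higher by that measure for 0 units, against 1.03% of all features. The Edited minus Non-edited difference of LOC674029 was -2.02, and -2.27 and -1.77 in the 2 orientations. With the scanner software's own log ratio its sign turned, at 0.56, the median over the 6 was -0.19 and 2 units in place of 3 were 2-fold lower. For ENSMUST00000089809 it was -1.74 and for BC080787 -1.55. ENSMUST00000089814 differed by -0.95, the smallest size among the 4 units that read above WT in Auto.Neg. Igk-V21-12 went the other way, at 1.13, with 1.49 and 0.78 in the orientations, and LOC673099 differed by 0.30. The median over the 6 was -1.25, and over all features -0.03.

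For 5 of the 6 units, all but LOC673099, Edited lay between the 3 other samples with Vk21-5 on one side and both WT samples on the other, against 3.35% of all features. Among 40 other kappa units past the filter 14 had this arrangement, 24 without the second array of WT sample 2 and 25 without WT sample 2. The arrangement was defined after the values were seen. On the way from Non-edited to the WT mean, Edited stood at 31.3% for ENSMUST00000089814, 50.1% for BC080787, 58.9% for LOC674029, 65.4% for ENSMUST00000089809 and 66.1% for Igk-V21-12 on the log2 scale. Edited exceeded the WT mean by 2.09 for ENSMUST00000089814, 1.54 for BC080787, 1.41 for LOC674029 and 0.92 for ENSMUST00000089809. The pooled SD of these units was 0.21 to 0.47, but with 1 Edited sample these differences are a description. That of LOC674029 rests on a dim reference channel in Edited, in WT sample 1 and on 1 array of WT sample 2. The count of 5 was also found without the second array of WT sample 2. Leaving out a sample of Auto.Neg or WT can only loosen this arrangement, and Auto.Pos does not enter it. The count of 5 without each of those samples is therefore no further evidence.

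The channels behind these ratios are shown in the plot of spot intensities. The raw sample signal of ENSMUST00000089814 was 26489 to 64907 on the arrays of Auto.Neg and Non-edited, 13528 and 11371 on those of Edited, 2630 to 3141 in WT, and 92.8 to 157.6 in Auto.Pos. Its reference signal, which measures 1 RNA pool throughout, was 459 to 797 on the arrays of Auto.Neg and Non-edited and 138 to 581 on the others. The reference channel read highest, at 797, on the Non-edited array where the sample channel was also brightest. The ranges overlap, with 581 on the second array of WT sample 2 above the 459 and 467 of Auto.Neg sample 1. The part of the reference channel in the ratios was not tested. No unit was marked as saturated.

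**Figure D3:**
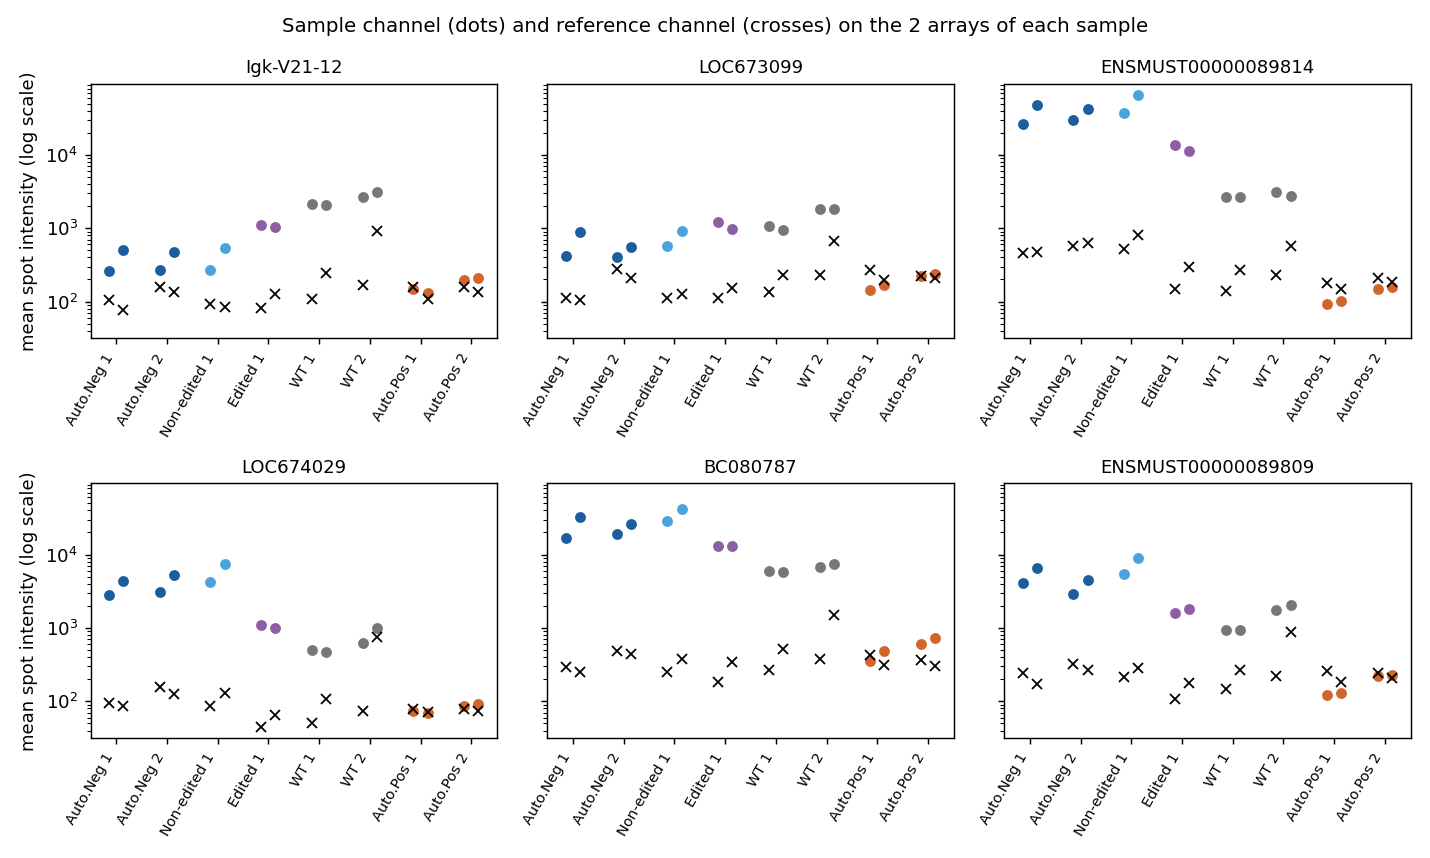
Mean spot intensity before background correction (y axis, log scale) on both arrays of each sample (x axis), with dots for the sample channel coloured by group and crosses for the reference channel. The sample channel of ENSMUST00000089814 reaches 64907 in Non-edited and is at most 157.6 in Auto.Pos, and the crosses of WT sample 2 lie higher on the second array than on the first for every unit.

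Within the span lay 1 further feature past the filter, BC108385, a cDNA clone that the files do not call a kappa chain, at chr6:70690221-70690280. It read 5.43 and 5.70 in the Auto.Neg pair, 5.97 in Non-edited, 4.75 in Edited, 4.55 and 4.10 in WT, and -0.93 and -0.06 in Auto.Pos, which is the group order of the 4 units around it. By correlation with the mean of the 6 over the 8 samples it was also the most alike feature on the array (r = 0.991). Next came LOC669091, a V-IV kappa unit at chr6:70359014-70359073 (r = 0.988), which read 3.15 and 3.46 in the Auto.Neg pair, 3.84 in Non-edited, 2.98 in Edited, 2.97 and 2.03 in WT, and 0.16 and 0.41 in Auto.Pos. U10410, a single-chain antibody mRNA (r = 0.985), and U55685, an antibody light chain (r = 0.967), have no position in the files. U10410 read 5.20 and 5.46 in the Auto.Neg pair, 6.71 in Non-edited, 5.51 in Edited, and 4.38 and 3.96 in WT. U55685 read 4.58 and 4.55 in the Auto.Neg pair, 6.56 in Non-edited, 5.12 in Edited, and 4.18 and 3.43 in WT. Dusp6, Kptn, Kif13a and Snx6, which lie on other chromosomes, completed the nearest 8 at r = 0.928 to 0.960, with ranges of 0.59 to 1.39 against 3.68 to 6.90 for the first 4. With 8 samples and 29637 features such correlations are a description. The units nearest to Igk-V21-12 alone were Igkv14-111 (r = 0.990) and NP060060, a light chain variable region (r = 0.987).

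The following features outside the span read differently from the units from ENSMUST00000089814 to ENSMUST00000089809. LOC668423, on none of the lists, lies next to Igk-V21-12 at chr6:70536188-70536247. It was the nearest feature past the filter on that side. It read -0.96 and -1.06 in the Auto.Neg pair, -1.23 in Non-edited and 0.07 in Edited. In WT it read 0.95 and 0.48, and in Auto.Pos -1.11 and -1.22. LOC669070, a V-V kappa unit at chr6:70475512-70475571, read 0.25 and 0.64 in the Auto.Neg pair, 0.25 in Non-edited, 3.96 in Edited, 4.05 and 3.19 in WT, and 1.09 and 1.56 in Auto.Pos. Igk-V19-14 at chr6:70424460-70424519 read 0.63 to 0.96 in Auto.Neg and Non-edited, 4.43 in Edited and 5.42 and 4.88 in WT. In Igk-V19-14 and LOC668423 both WT samples were highest and Edited came next, as in Igk-V21-12 at that end of the span. Igk-V8-16 at chr6:70404878-70404937 read 0.20 to 2.15 in Auto.Neg and Non-edited, 2.50 in Edited and 1.32 and 1.28 in WT. L18942, a light chain mRNA that starts at position 70722138, had 0.94 to 1.97 in Auto.Neg and Non-edited, 4.02 in Edited, 5.01 and 3.78 in WT, and 3.63 and 3.25 in Auto.Pos. It begins next to ENSMUST00000089809 in the files' coordinates, and that neighbour read highest in the 3 samples where L18942 read lowest.

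**Figure D4:**
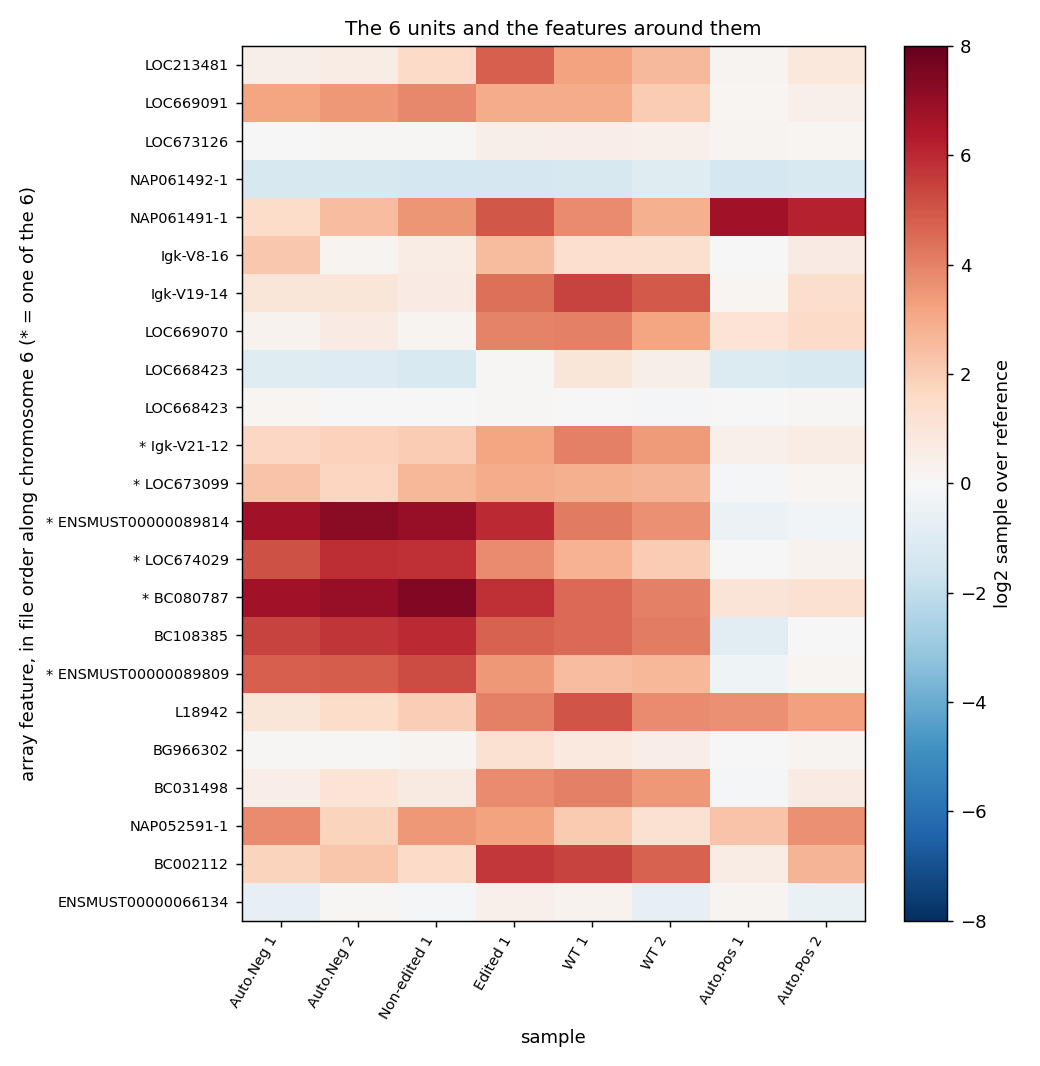
Log2 ratio of sample over reference (colour) of the 6 units, marked with asterisks, and of the features around them on chromosome 6 (rows, in file order) in the 8 samples (columns). A block of red in Auto.Neg and Non-edited covers the 4 units from ENSMUST00000089814 to ENSMUST00000089809 and BC108385, and NAP061491-1 is reddest in Auto.Pos.

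The remaining kappa units give the setting for this pattern. They were taken by a rule on names and descriptions, and 40 of the 41 found passed the filter. Their median ratio was 0.46 and 0.70 in Auto.Neg, 0.63 in Non-edited, 3.07 in Edited, 3.24 and 2.64 in WT, and 0.14 and 0.41 in Auto.Pos. The median of the 6 units in the same samples was 4.95 and 5.37, 5.52, 3.64, 3.42 and 3.09, and -0.05 and 0.23. A ratio also depends on how much of each feature the reference holds, so these medians are read across samples: the 40 stood highest in Edited and WT, the 6 in Auto.Neg and Non-edited, and both were lowest in Auto.Pos.

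Of the 40, 35 had both Auto.Neg samples and Non-edited below WT (background 6.97%) and 1, LOC669091, had them above. The rule on names does not take in every light chain feature. It left out U10410, U55685 and BC108385, which had them above WT, and L18942 and NP060060, which had them below. The median Auto.Neg minus WT difference of the 40 was -2.05, with 38 negative, and that of Auto.Pos minus WT -2.01, also with 38 negative. limma with Benjamini-Hochberg adjustment over all features called 0 of the 40 in either comparison. At an unadjusted p under 0.05, 31 were lower in Auto.Neg than in WT and 30 were lower and 1 higher in Auto.Pos than in WT. LOC675694 had the lowest adjusted p of the 40 for Auto.Neg against WT, 0.242 in limma, with a difference of -4.12 (SE 0.23). Edited was higher than Non-edited by 2-fold or more in both orientations for 26 of the 40 and lower for 0, with a median difference of 1.80. By sign, Igk-V21-12 stood with most of these units in all 3 comparisons. The 4 units from ENSMUST00000089814 to ENSMUST00000089809 had the opposite sign in Auto.Neg minus WT and in Edited minus Non-edited, and the same, negative sign in Auto.Pos minus WT.

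**Figure D5:**
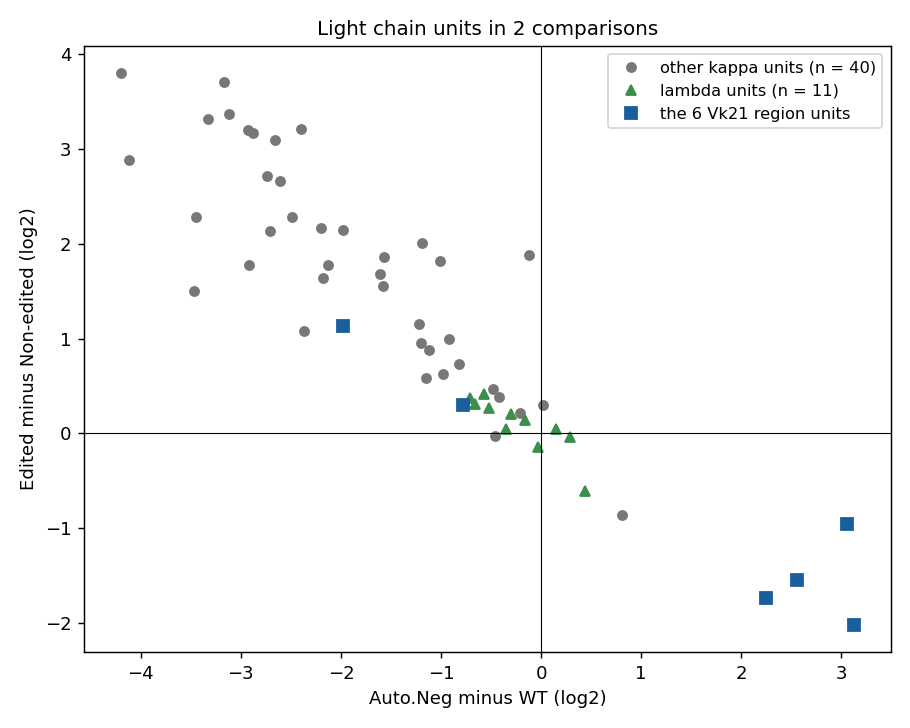
Auto.Neg minus WT (x axis) against Edited minus Non-edited (y axis) in log2 for the 6 units (squares), 40 other kappa units (circles) and 11 lambda units (triangles). The comparisons share no sample, and 4 squares lie at the lower right, at 2.25 to 3.13 on the x axis, opposite to most circles.

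Features that read high in Auto.Pos were looked for after the values were seen. ENSMUST00000066275, a V-V kappa unit at chr6:70092051-70092110, was the only 1 of the 40 with both Auto.Pos samples above the 6 others, at 7.81 and 7.25 against 2.62 to 6.37. NAP061491-1 at chr6:70389786-70389854, which the files call unknown, read 6.73 and 6.15 in Auto.Pos and 1.44 to 4.99 elsewhere.

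The other lists showed no call in the replicated comparisons. Of 11 lambda light chain units, the alternative to kappa, 0 were called by limma in any of the 3 replicated comparisons, 0 at an unadjusted p under 0.05 and 0 were 2-fold apart between Edited and Non-edited. The median Auto.Neg minus WT difference of the lambda units was -0.30. Among the receptor partners Cd79a, Cd79b and Ighm, which form the B cell receptor with the light chain, 0 of 3 were called or had an unadjusted p under 0.05. Ighm, the heavy chain constant region of IgM, read 3.83 and 3.86 in the Auto.Neg pair, 3.99 in Non-edited, 3.85 in Edited, 4.02 and 3.79 in WT, and 3.95 and 3.37 in Auto.Pos, with the replicated groups overlapping. Of 13 recombination and surrogate light chain genes tested, 0 were called, with 1 at an unadjusted p under 0.05 in Auto.Neg against WT and 2, of which 1 was higher and 1 lower, in Auto.Pos against WT. Rag1, a subunit of the V(D)J recombinase, read -4.24 to -3.59 over the 8 samples, below the reference in each. Of 13 transcription factors of the kappa locus 0 were called, with 1 at an unadjusted p under 0.05 in Auto.Neg and in Auto.Pos against WT. Their median Edited minus Non-edited difference was 0.00, and 0 were 2-fold apart in both orientations. Of the cell type markers 0 were called in the 3 replicated comparisons, and between Edited and Non-edited 1 of 7 macrophage markers read 2-fold higher, 2 of 5 neutrophil markers and 1 of 9 plasma cell markers 2-fold lower, and 0 of 10 B cell and 0 of 10 T cell markers either way. At an unadjusted p under 0.05 there were at most 2 markers of a list in any comparison. Sdc1, a plasma cell surface proteoglycan named after its values were seen, differed by -1.77 (SE 0.27, adjusted p = 0.401 in limma) in Auto.Neg and by -1.13 (SE 0.27, adjusted p = 0.63 in limma) in Auto.Pos against WT.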

How the data were processed

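Scanner files gave, per the file headers, spot and background intensity in 2 channels, written by Agilent Feature Extraction 9.1.1.1, 9.1.3.1 and 9.5.1.1, and a log10 ratio of red over green. The authors' deposited series table holds a log2 ratio per array, and the submitters' processing notes name limma without a version. Its scale is log2 by comparison with the scanner files and each column is centred near 0, but only 6 of its 16 columns matched the array of their label, and 2 had the opposite sign. It was used as an alternative only, and 0 of its columns belong to no sample. Amplification started from 100 ng of RNA, per the labels' protocols.

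Mean spot intensity was corrected by normexp (offset 50) and normalized within arrays by loess, giving control spots weight 0 and leaving out outlier spots. Every ratio was expressed as sample over reference, then averaged over a sample's 2 arrays. Features passed the filter if at least 2 samples had both arrays well above background in the sample channel. The limma fit had a mean for each of the 5 groups and 3 residual degrees of freedom, and p-values were adjusted over all 29637 features and called under 0.05. The tools were R 4.3.3, limma 3.58.1 and the R package data.table, at version 1.17.8, and the script was tested on simulated data. The number of arrays limits the precision. Sample numbers 1 and 2 come from the labels, and the deviations of same-numbered samples correlated at -0.81 (Auto.Neg, Auto.Pos), -0.27 (Auto.Neg, WT) and 0.26 (Auto.Pos, WT), so the numbers were not taken as pairs.

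The 6 units, the lists and the comparisons were chosen with earlier results of these data known. The genes named besides the 6 are the 3 listed kappa units nearest in position on the low-coordinate side (none of the list lies beyond the other end), the 8 features most correlated with the mean of the 6, the closest to single units, and examples of the lists; exceptions are marked. Alternatives covered background correction, normalization, the deposited table, dye orientation, filter, blocks and each sample left out.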

Additional observations from a re-analysis of the deposited data

How the results depend on the processing

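Leaving aside the deposited table read by its own labels, the sign of a unit's difference was kept in 90 of 90 alternative values for Auto.Pos minus Auto.Neg, 90 of 90 for Auto.Neg minus WT, 96 of 96 for Auto.Pos minus WT and 35 of 36 for Edited minus Non-edited, the exception being LOC674029 at 0.56 with the scanner software's own log ratio. In the replicated comparisons these totals include alternatives that repeat the main value and could not turn a sign. Those are the blocks and the left-out samples of the group not compared. That log ratio gave medians over the 6 units of -5.46 (Auto.Pos minus Auto.Neg), 1.85 (Auto.Neg minus WT), -3.50 (Auto.Pos minus WT) and -0.19 (Edited minus Non-edited), with 1 feature called for Auto.Pos against Auto.Neg, 1 for Auto.Pos against WT and 1155 features 2-fold apart between Edited and Non-edited in place of 347. It left 3 units in place of 5 with Edited between the other Vk21-5 samples and WT, and 2 in place of 3 that were 2-fold lower in Edited. Median centring gave -4.67, 2.08 and -0.80 for Auto.Pos minus Auto.Neg, Auto.Neg minus WT and Edited minus Non-edited, with 0 features called for the first, 4 units in between and 2 units 2-fold lower in Edited. Scale normalization gave medians of 2.02 (Auto.Neg minus WT) and -3.26 (Auto.Pos minus WT), with 0 called for Auto.Pos against Auto.Neg and 7 for Auto.Pos against WT. Arrays with the sample in Cy5 gave medians of 2.13 and -3.39 against WT for Auto.Neg and Auto.Pos, calls of 12, 52 and 63 for Auto.Pos against Auto.Neg, Auto.Neg against WT and Auto.Pos against WT, and 522 features 2-fold apart. Arrays with the sample in Cy3 gave medians of 2.67 and -2.55, with 0 called for Auto.Pos against Auto.Neg. The cause of these shifts was not tested.

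The authors' deposited table as labelled reversed the median for Auto.Pos minus Auto.Neg to 2.19 (Igk-V21-12 2.85, LOC673099 1.73, ENSMUST00000089814 1.95, LOC674029 2.43, BC080787 2.89, ENSMUST00000089809 1.54) and for Auto.Neg minus WT to -4.17 (ENSMUST00000089814 -5.34, LOC674029 -4.30, BC080787 -5.48, ENSMUST00000089809 -4.05). It gave -2.18 for Auto.Pos minus WT, calls of 10223 and 9021 for Auto.Pos against Auto.Neg and Auto.Neg against WT, and 1588 features with the 4 Vk21-5 samples apart from the 4 others in place of 612. Of its 16 columns, 10 match an array of another label. With its columns rematched the median for Auto.Pos minus Auto.Neg was -5.52 and 1 feature was called for Auto.Pos against WT.

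Leaving out 1 sample at a time, no feature was called in any comparison (0 to 0), so the 3 calls of Auto.Pos against Auto.Neg rest on each of the 6 samples, while the medians ran from -5.35 to -4.94 (Auto.Pos minus Auto.Neg), 2.31 to 2.49 (Auto.Neg minus WT) and -3.11 to -2.83 (Auto.Pos minus WT). With the sample number as a replicate block, though the numbers do not pair the samples, 0 features were called for Auto.Pos against Auto.Neg, and 0 also with no filter on dim signals or with the scanner protocol as a block. With crossed numbers in Auto.Neg, an alternative chosen after seeing the data, 0 were called. The slide as a random block gave no estimate, since 7 slides held the 8 samples. Within slide 2 the median for Auto.Pos minus Auto.Neg was -5.54, and within scan day 3 that for Auto.Pos minus WT was -2.70. Without the second array of WT sample 2, also chosen after seeing the data, the medians were 2.02 (Auto.Neg minus WT) and -3.32 (Auto.Pos minus WT), with 26 features called for the latter. Signal over background limits LOC674029 in Auto.Pos, whose signal was not well above background.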
